A study of Mus musculus with 7 samples.

Results

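The Cyp2a, Cyp2b and Cyp2f2 genes form a tandem cluster of related cytochrome P450 genes on mouse chromosome 7. The cluster was described here through 8 genes, *Cyp2a4*, *Cyp2a5*, *Cyp2a12*, *Cyp2a22*, *Cyp2b9*, *Cyp2b10*, *Cyp2b13* and *Cyp2f2*, taken by matching each Ensembl identifier of the deposited table to its symbol in GENCODE vM21. Of these, 7 had a row among the 14851 genes of the table, and *Cyp2b13* was not analysed here. Livers of genotype *Albumin-Cre; p53* FL/FL (FL, 4 mice) had floxed *Trp53* removed by Cre driven from the *Albumin* promoter, and livers of genotype *Albumin-Cre; p53* WT/WT (WT, 3 mice) held the same Cre and intact *Trp53*. All 7 were C57BL/6J males about 70 days old, and their livers were taken 8 h after CCl4 treatment (1 mL/kg of a 20% stock in corn oil, given once into the peritoneum). CCl4 is a solvent that P450 enzymes of hepatocytes turn into reactive radicals. Some mice of both genotypes also carried a *Rosa26* LSL-tdRFP reporter. *Albumin-Cre* acts in hepatocytes, and which other cells of the liver keep *Trp53* was not measured here. Littermates of like age were used as far as this could be done, per the methods, and treatment was on one occasion. The source names of the 3 WT mice share a prefix that no FL mouse has, and what the prefix stands for is not given in the sources used here. RNA of whole liver was measured, and fewer cells of a type and less RNA per cell cannot be told apart in it.

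Cytochrome P450 enzymes sit in the endoplasmic reticulum and oxidise drugs, toxins, steroids and other small lipophilic molecules, with electrons passed on by the reductase encoded by *Por*. CYP2A5 hydroxylates coumarin, oxidises nicotine and can oxidise bilirubin, and its gene is known to respond to oxidative stress and liver injury. CYP2A4 is a steroid 15-alpha-hydroxylase and is higher in female than in male mouse liver, as are *Cyp2b9* and *Cyp2b13*. *Cyp2b10* is the classical target gene of the nuclear receptor CAR (*Nr1i3*) and is induced by phenobarbital. CYP2F2 activates naphthalene and is known from airway club cells and from hepatocytes around the portal vein. *Cyp2a12* encodes a further steroid hydroxylase of hepatocytes, and *Cyp2a22* its close relative.

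The members are near copies of each other, and this bears on what their counts mean, so the sequences that carry it are shown first. In GRCm38 the cluster ran from 25802475 to 27158668 on chromosome 7, over 1356.2 kilobases. In order along the chromosome lay *Cyp2b10* (25897620 to 25926624), *Cyp2b13* (26061497 to 26096197), *Cyp2b9* (26173411 to 26210661), *Cyp2a4* (26307169 to 26315088), *Cyp2a5* (26835305 to 26843548), *Cyp2a22* (26931631 to 26939384, on the minus strand unlike the other members), *Cyp2a12* (27029081 to 27037375) and *Cyp2f2* (27119909 to 27133660). The coding sequences of *Cyp2a4* and *Cyp2a5* were identical at 98.4% of 1482 aligned bases, and those of *Cyp2a12* and *Cyp2a22* at 97.0% of 1476. *Cyp2b9* and *Cyp2b13* were identical at 92.7%, and *Cyp2b10* was identical to these at 87.8% and 88.7%. *Cyp2f2* was at most 58.5% identical to any other member. The longest run shared by *Cyp2a5* and *Cyp2a4* covers 216 coding bases, from base 742 to base 957 of both, in exons 5 and 6. In *Cyp2a5* it lies at chr7:26838955-26839044 and chr7:26840360-26840485, and in *Cyp2a4* at chr7:26310793-26310882 and chr7:26312187-26312312. It is shown because a read of 36 bases inside it fits both genes alike, and only its mate could place the pair.
*Cyp2a5* and *Cyp2a4* shared coding run: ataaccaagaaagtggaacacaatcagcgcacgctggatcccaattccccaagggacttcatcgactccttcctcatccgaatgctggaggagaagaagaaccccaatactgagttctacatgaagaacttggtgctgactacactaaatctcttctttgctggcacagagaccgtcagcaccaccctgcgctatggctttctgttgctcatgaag

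The reads of these libraries were pairs of 36 bases. Of the 36-base stretches of the longest coding transcript of *Cyp2a4*, 50.03% also occur in *Cyp2a5*, and of those of *Cyp2a5*, 43.07% occur in *Cyp2a4* and 22.75% in the pseudogene *Cyp2a21-ps*. *Cyp2a12* shares 36.63% with *Cyp2a22*, which shares 34.53% in return. *Cyp2b9* shares 20.64% with any other gene, *Cyp2b10* 17.44% and *Cyp2b13* 35.82%, and *Cyp2f2* shares none (0). The counting could therefore have dropped or divided reads of every member but *Cyp2f2*, and the levels of the other members are uncertain by an amount that the table does not show.

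**Figure D1:**
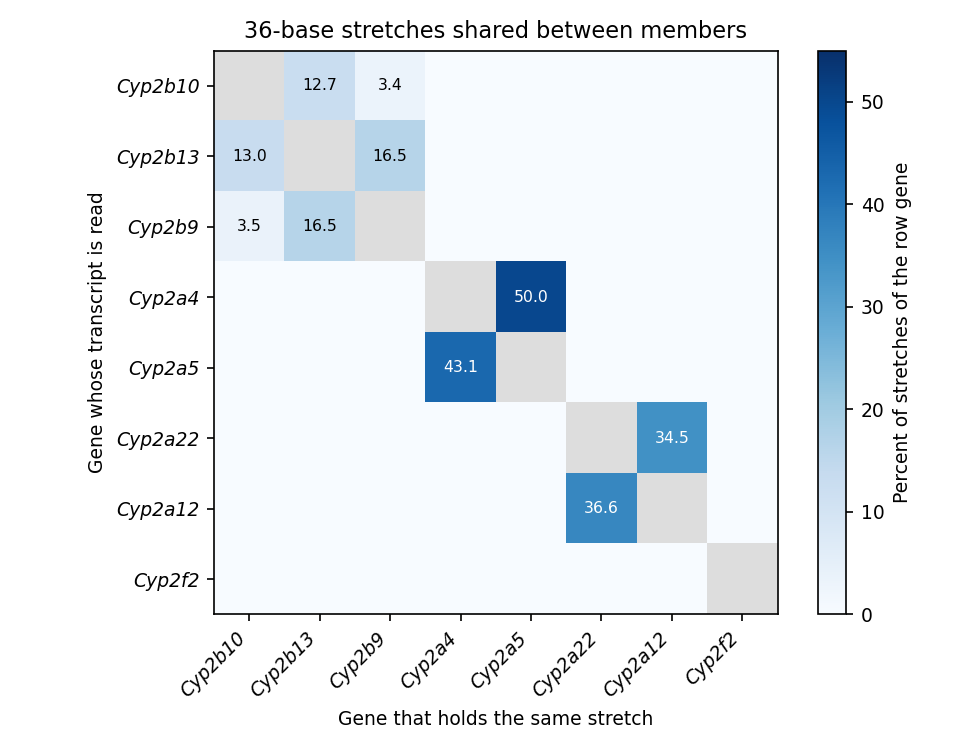
Heat map of the percent of 36-base stretches in the longest coding transcript of the row gene that also occur in the column gene, for the 8 members. The sharing stays within the pairs *Cyp2a4* and *Cyp2a5* (50.03% and 43.07%) and *Cyp2a12* and *Cyp2a22* (36.6% and 34.5%) and within the Cyp2b genes, and *Cyp2f2* shares none.

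The regions just before the transcription start are alike in the same pairs. Over the 250 bases before the RefSeq start (GRCm38.p6), the promoters of *Cyp2a4* and *Cyp2a5* were identical at 245 of 251 aligned positions (97.6%), those of *Cyp2b9* and *Cyp2b13* at 99.2% and those of *Cyp2a12* and *Cyp2a22* at 82.8%. The first 240 bases of these regions are printed for both Cyp2a pairs, from RefSeq, because within each pair the levels described below are far apart. They lie at chr7:26835089-26835328 (plus strand) for *Cyp2a5*, chr7:26306942-26307181 (plus) for *Cyp2a4*, chr7:27028840-27029079 (plus) for *Cyp2a12* and chr7:26939397-26939636 (minus) for *Cyp2a22*. In GENCODE *Cyp2a5* starts at 26835305 and *Cyp2a4* at 26307169, so by that annotation their last printed bases lie within the gene. Capitals mark the bases that differ from the other gene of the pair or have no partner in the alignment.
*Cyp2a5*: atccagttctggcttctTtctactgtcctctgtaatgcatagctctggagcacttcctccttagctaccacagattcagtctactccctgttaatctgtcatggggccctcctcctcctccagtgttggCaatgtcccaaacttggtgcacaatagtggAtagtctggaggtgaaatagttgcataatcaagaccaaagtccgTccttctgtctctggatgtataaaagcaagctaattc
*Cyp2a4*: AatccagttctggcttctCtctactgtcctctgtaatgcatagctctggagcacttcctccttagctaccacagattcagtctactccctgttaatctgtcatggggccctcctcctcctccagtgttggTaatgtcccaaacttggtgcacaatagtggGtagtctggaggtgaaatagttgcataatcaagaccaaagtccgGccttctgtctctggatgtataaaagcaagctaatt
*Cyp2a12*: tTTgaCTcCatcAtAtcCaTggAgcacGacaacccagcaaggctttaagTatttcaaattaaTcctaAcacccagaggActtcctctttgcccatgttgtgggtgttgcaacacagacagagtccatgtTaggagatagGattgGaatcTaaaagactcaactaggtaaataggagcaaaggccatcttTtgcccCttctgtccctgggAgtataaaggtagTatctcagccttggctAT
*Cyp2a22*: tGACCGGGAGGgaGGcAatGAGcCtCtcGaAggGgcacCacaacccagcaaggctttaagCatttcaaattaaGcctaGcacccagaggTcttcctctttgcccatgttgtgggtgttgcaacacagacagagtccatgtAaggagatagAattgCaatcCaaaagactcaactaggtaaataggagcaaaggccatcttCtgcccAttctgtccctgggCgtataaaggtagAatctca

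Both strands of the 8 promoters, from 250 bases before to 50 bases after the start, were searched for 5 motifs and set against all 32851 promoters. The core site of nuclear receptors, AGGTCA, was in 5 of the 8 (*Cyp2a4*, *Cyp2a5*, *Cyp2b9*, *Cyp2b13* and *Cyp2f2*) and in 16.26% of all promoters. In *Cyp2a4* and *Cyp2a5* it lay after the start, at bases 30 to 35 and 29 to 34, and in *Cyp2b9* and *Cyp2b13* at the same place before it, from base -138 to base -133. The 10-base repeat of the p53 response element was in 1 of the 8, in *Cyp2f2* from base -21 to base -12, and in 8.36% of all. GENCODE starts *Cyp2f2* earlier, at 27119909, so by that annotation this match lies within the gene. The core of the antioxidant response element (TGACNNNGC, 12.39% of all), the STAT site (TTCNNNGAA, 8.3%) and an HNF4A site (CAAAGTCCA, 0.47%) had 0 matches in the 8. These are exact matches of letters in a short window, so sites that differ from the motif were not found, and distal elements were not searched. *Cyp2a4* and *Cyp2a5* both hold a stretch that differs from the HNF4A site only in its last letter.

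The deposited values are DESeq2-normalised counts rounded to whole numbers. About 11.9 to 19.5 M reads per FL liver and 15.4 to 17.1 M per WT liver lay behind them, as estimated from the spacing of low values. For *Trp53*, FL replicates 1 to 4 held 131, 130, 217 and 110 normalised counts while WT replicates 1 to 3 held 876, 688 and 831, so the labels and the deleted gene go together. The hepatocyte markers (8 of 8 with a row, none at 0 in all livers) summed to 1419033 to 1800748 in FL and 1231826 to 1452394 in WT livers. Along the first principal component (66.7% of the variance), a value of 82.0 set WT replicate 2 apart and one of 29.2 FL replicate 3, with the other 5 livers between -25.6 and -19.1. Members and lists are therefore also given without WT replicate 2 where their values rest on it. The genotypes were compared over 12545 genes by limma, on log2(normalised count + 1), a scale that understates differences of low genes. P-values were adjusted over all of these genes (Benjamini-Hochberg, threshold 0.05), and negative log2 fold changes are lower in FL livers.

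The abundant members differed between the genotypes by unlike amounts. *Cyp2a5* in FL livers stood at 27.9% of its WT mean, while *Cyp2f2* and *Cyp2a12*, the members with the highest levels per kilobase of transcript in FL livers, stood at 117% and 104%. *Cyp2b10* and *Cyp2a22* were also below the WT range in every FL liver, and *Cyp2a4* and *Cyp2b9* varied between livers of one genotype more than between genotypes. None of the 7 members passed the limma threshold (0 with an adjusted p under 0.05). Of all tested genes, 0.0159% passed it with lower values in FL livers. At an unadjusted limma p under 0.05, 3 members were lower in FL livers (*Cyp2a5*, *Cyp2a22* and *Cyp2b10*), against 1.6% of all tested genes. In the same 3 of 7 members all FL livers lay below all WT livers, against 1.98% of all tested genes. No member had all FL livers above all WT livers, against 2.77% of all. The median log2 fold change of the 7 was -1.37, which is the value of *Cyp2a4*, and that of all tested genes 0.0069. It was -0.37 without WT replicate 2, over the 6 members that could still be tested, with 3 below 0 and 3 above, beside -0.011 for all tested genes.

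**Figure D2:**
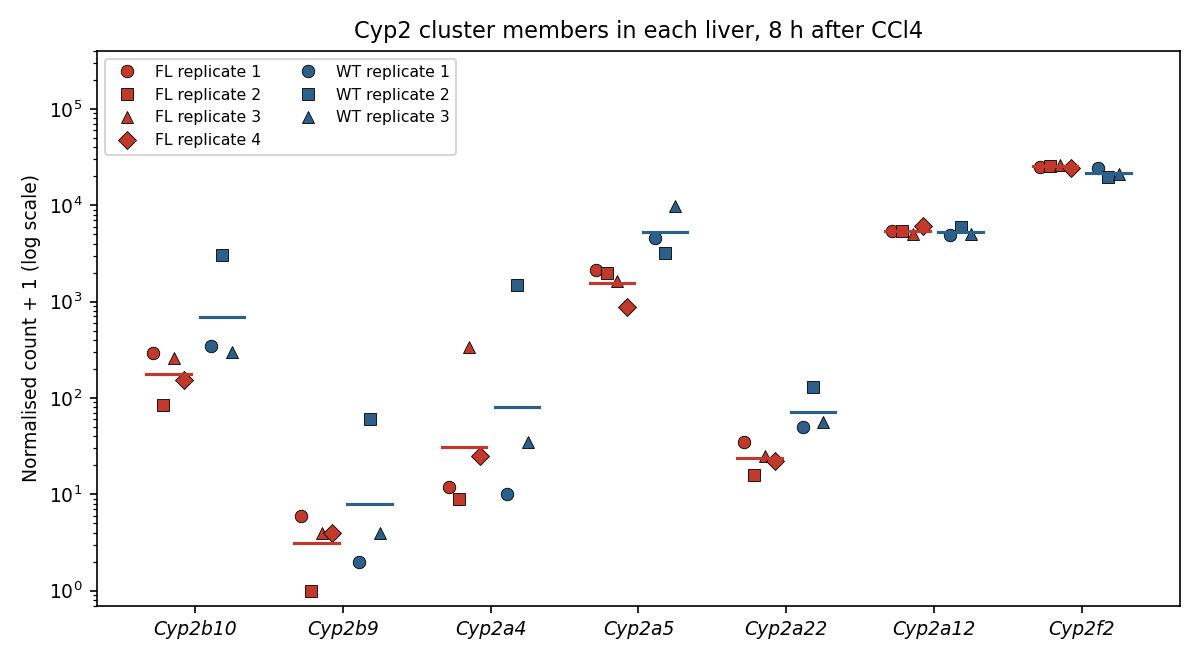
Normalised count + 1 (log axis) of the 7 members with a row in each of 4 FL (red) and 3 WT (blue) livers, in chromosomal order, with a symbol per liver and a line at the geometric mean of each group. *Cyp2a5*, *Cyp2a22* and *Cyp2b10* separate the genotypes, *Cyp2a12* and *Cyp2f2* hardly vary, and *Cyp2a4*, *Cyp2b9* and *Cyp2b10* peak in WT replicate 2.

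*Cyp2a5* reached 2104, 1964, 1642 and 887 normalised counts among FL livers, in the order of their replicate numbers, against 4591, 3210 and 9903 among WT livers. The groups did not overlap, and the WT livers were spread more widely than the FL livers. The means were 1649 ± 544 (SD, n = 4) and 5901 ± 3534 (SD, n = 3). By limma the log2 fold change was -1.75 (standard error 0.42, 95% interval -2.73 to -0.77, unadjusted p = 0.00341, adjusted p = 0.999). A two-sided exact permutation test with 35 possible splits gave p = 0.0286, which is the smallest these groups can give. WT replicate 3 held the highest value, and without it the log2 fold change was -1.29.

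*Cyp2a4* showed another pattern than its near copy. It reached 11, 8, 337 and 24 normalised counts among FL livers, against 9, 1468 and 34 among WT livers. The groups overlapped, and 2 livers of different genotype, WT replicate 2 and FL replicate 3, were far above the other 5. In WT replicate 2 the level was 68.3 times the mean of the other WT livers, and in FL replicate 3 it was 23.5 times the mean of the other FL livers. The log2 fold change of -1.37 was smaller than its standard error of 1.83 (limma adjusted p = 0.999, exact permutation p = 0.514). Without WT replicate 2 it became 0.72, and without FL replicate 3 as well it was -0.43. On the scale of normalised counts per kilobase of transcript, *Cyp2a4* made up 34.6% of the *Cyp2a4* and *Cyp2a5* level in WT replicate 2 and 19.2% in FL replicate 3, but between 0.227% and 3.04% in the other 5 livers.

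Because reads may have passed between these near copies, their normalised counts were also added up, an alternative chosen after the data had been seen. The sum was 2115, 1972, 1979 and 911 among FL livers, against 4600, 4678 and 9937 among WT livers. The groups did not overlap, and WT replicate 2, the lowest WT liver for *Cyp2a5* alone, was level with WT replicate 1 in the sum. FL livers averaged 27.2% of WT livers, and the log2 difference was -1.85 (exact two-sided permutation p = 0.0286, the smallest possible). The separation of the genotypes was thus as large for the pair as for *Cyp2a5* alone.

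*Cyp2a12* reached 5337, 5450, 4987 and 6103 normalised counts among FL livers, against 4871, 5902 and 5014 among WT livers. These ranges lay over each other, and the highest liver was only 1.25 times the lowest. The log2 fold change was 0.057 (standard error 0.12, 95% interval -0.22 to 0.33, limma adjusted p = 0.999, exact permutation p = 0.543). *Cyp2a22*, which shares 34.53% of its 36-base stretches with *Cyp2a12*, reached 34, 15, 24 and 21 normalised counts in FL, against 49, 129 and 55 in WT livers. The groups did not overlap, with means of 23.5 ± 7.94 (SD, n = 4) and 77.7 ± 44.6 (SD, n = 3). Its log2 fold change was -1.60 (standard error 0.40, 95% interval -2.53 to -0.67, limma adjusted p = 0.999, unadjusted p = 0.00428), and the exact permutation p was 0.0286. Per kilobase, *Cyp2a12* was 48.9 to 106 times as high as *Cyp2a22* in WT livers and 168 to 388 times in FL livers, so *Cyp2a22* is a low signal beside an abundant near copy. How many of its reads stem from *Cyp2a12* was not tested.

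*Cyp2f2*, the member with no shared stretches, was the most abundant. It reached 25095, 25636, 26300 and 24199 normalised counts among FL livers, against 24210, 19627 and 20865 among WT livers. WT replicate 1 was just above FL replicate 4, and otherwise the FL livers were higher. The means were 25308 ± 888 (SD, n = 4) and 21567 ± 2371 (SD, n = 3). The log2 fold change was 0.24 (standard error 0.12, 95% interval -0.050 to 0.52, limma adjusted p = 0.999, exact permutation p = 0.0571).

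Among the Cyp2b genes, *Cyp2b10* reached 289, 83, 256 and 151 normalised counts in FL, against 348, 3040 and 302 in WT livers. The groups did not overlap, but the lowest WT liver and the highest FL liver were close, and WT replicate 2 was 9.35 times the mean of the other WT livers. The log2 fold change was -1.96 (standard error 0.82, 95% interval -3.85 to -0.073, limma adjusted p = 0.999, unadjusted p = 0.0435), and the exact permutation p was 0.0286. Without WT replicate 2 it was -0.89 (unadjusted p = 0.0793 from limma), and without that liver and FL replicate 3 it was -1.07. *Cyp2b9* reached 5, 0, 3 and 3 normalised counts in FL, against 1, 60 and 3 in WT livers, and it reached the minimum mean of 10 through WT replicate 2 alone. A count of 0 allows up to 3 counts, so in the other 6 livers *Cyp2b9* was at or near the floor of detection. Its fitted log2 fold change of -1.33 (limma adjusted p = 0.999) rests on WT replicate 2 and on the pseudocount, and is no measure of a difference between the genotypes.

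**Figure D3:**
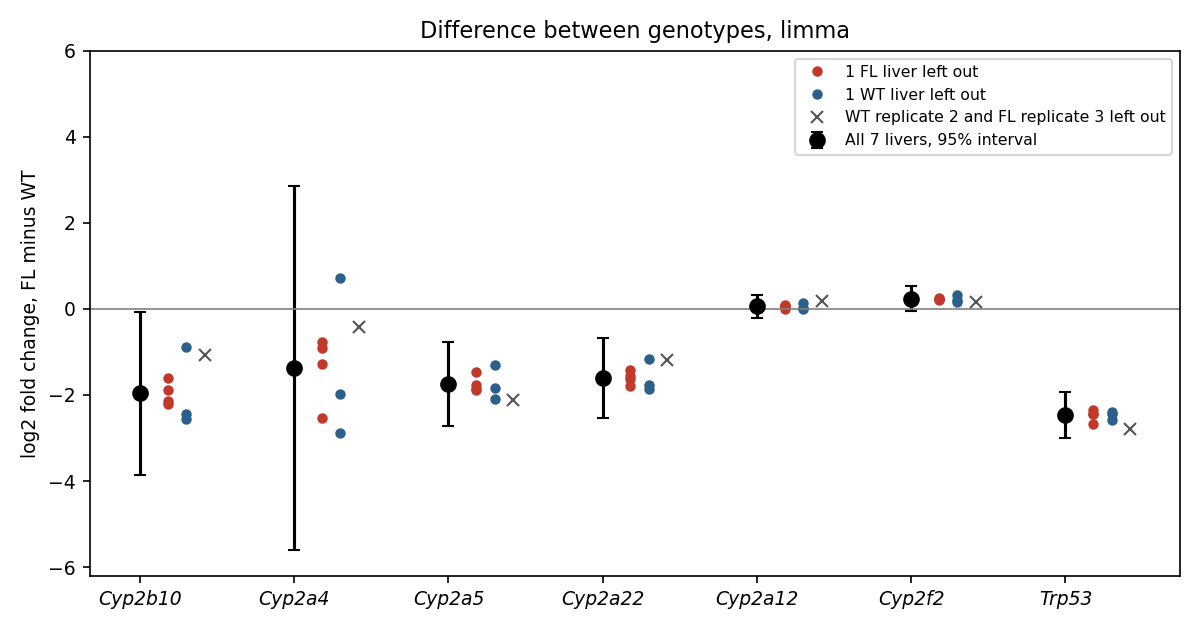
Log2 fold change (FL minus WT, limma) of 6 members and *Trp53* with all 7 livers (black, 95% interval), with each liver left out in turn (red, FL liver; blue, WT liver), and without both WT replicate 2 and FL replicate 3 (cross). *Cyp2a5* stays between -2.13 and -1.29, and *Cyp2b10* moves to -0.89 and *Cyp2a4* to 0.72 without WT replicate 2. *Cyp2b9* is left out because its value rests on that liver.

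The levels of the members were compared with each other per kilobase of their longest coding transcript, in normalised counts per kilobase. *Cyp2f2* was first in all 7 livers, at 13562 ± 476 in FL (SD, n = 4) against 11558 ± 1271 in WT livers (SD, n = 3). *Cyp2a12* came next with 3254 ± 277 in FL and 3130 ± 332 in WT livers. *Cyp2a5* followed in FL livers at 819 ± 270, below the range of *Cyp2a12*. In WT livers it was at 2932 ± 1755, a spread (1595 to 4920) that contained all WT values of *Cyp2a12*. *Cyp2b10* followed at 102 ± 49.6 in FL and 642 ± 818 in WT livers, where WT replicate 2 (1587) was level with *Cyp2a5* of the same liver (1595). *Cyp2a22* (13.1 ± 4.42 in FL, 43.2 ± 24.8 in WT) and *Cyp2a4* (medians of 10.1 in FL and 19.6 in WT) overlapped in both genotypes. *Cyp2b9* was last in FL and WT livers by its median of 1.60 in both.

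As a share of the summed level per kilobase of the 7 members, *Cyp2f2* took between 75.4% and 77.4% in FL livers and between 57.9% and 70.6% in WT livers. *Cyp2a5* took 5.86%, 5.42%, 4.48% and 2.57% in FL livers and 12.4%, 8.78% and 25.5% in WT livers. Both shares separated the genotypes, but they are not independent. The shares of a liver add up to the whole, so a lower *Cyp2a5* share raises that of *Cyp2f2*, whose normalised counts overlapped between genotypes. In WT replicate 2 *Cyp2b10* took 8.74% and *Cyp2a4* 4.65%, whereas in the other livers neither took more than 1.06%. The summed normalised counts of the 7 members overlapped, with 31388 to 33549 in FL and 33436 to 36176 in WT livers.

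**Figure D4:**
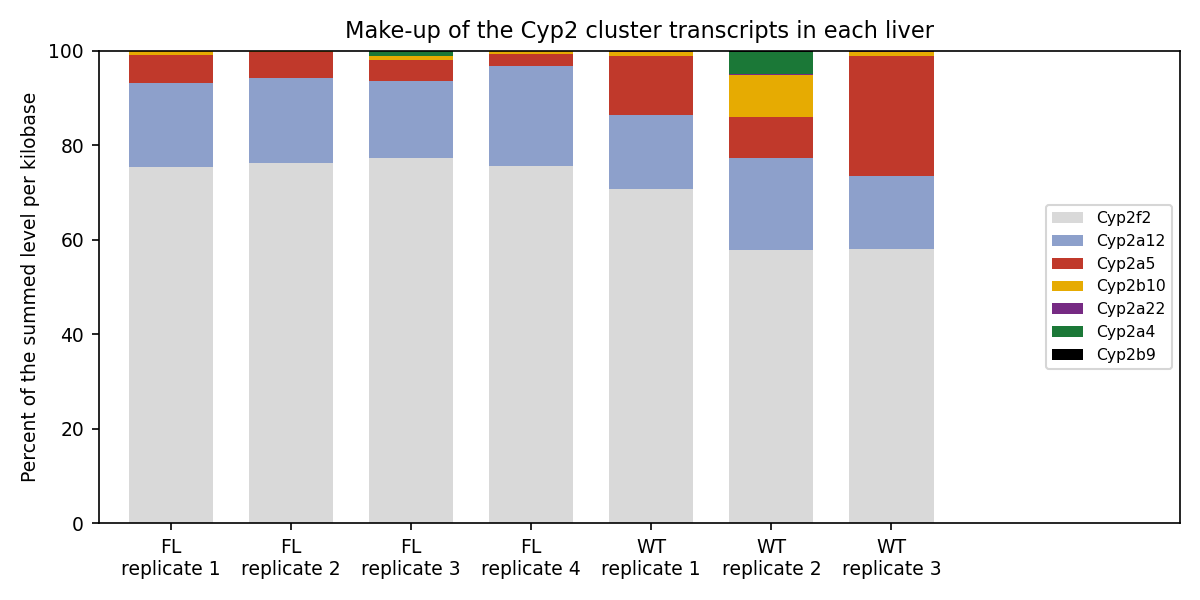
Percent of the summed level per kilobase (normalised counts per kilobase of the longest coding transcript) that each of the 7 members took in each liver. *Cyp2a5* (red) took 2.57% to 5.86% in FL and 8.78% to 25.5% in WT livers, and *Cyp2b10* (yellow) and *Cyp2a4* (green) are widest in WT replicate 2.

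A value of *Cyp2a5* relative to its nearest listed neighbours was formed as log2(*Cyp2a5* + 1) minus the mean of the same measure for *Cyp2a22*, *Cyp2a12* and *Cyp2f2*. It was 0.33, 0.59, 0.15 and -0.74 among FL livers, against 1.35, 0.38 and 2.46 among WT livers. The groups overlapped through FL replicate 2 and WT replicate 2. The FL mean was lower by -1.31 (exact two-sided permutation p = 0.0571). Against *Cyp2a12* alone the difference was -1.81 and against *Cyp2f2* alone -1.98, without overlap (exact p = 0.0286 for both). Against *Cyp2a22* alone, which was itself below the WT range in FL livers, it was -0.15 (exact p = 0.886).

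Along the chromosome, the tested genes within 500 kilobases of either end of the cluster were set beside the members. There were 30, with log2 fold changes from -0.86 (*Sptbn4*) to 0.38 (*B3gnt8*) and a median of -0.033. Of these 17 were below 0 and 13 above, and 1 had an unadjusted p under 0.05 by limma (*Sptbn4*). In 0 of 30 did the genotypes separate in either direction, against 1.98% (FL below) and 2.77% (FL above) of all tested genes. *Egln2*, which adjoins the *Cyp2f2* end of the cluster and encodes a prolyl hydroxylase, had a log2 fold change of 0.072. Of the other Cyp2 genes of the cluster, *Cyp2g1* (1 to 3 normalised counts in FL and 4 to 8 in WT livers), *Cyp2s1* (2 to 10 and 4 to 8) and *Cyp2t4* (3 to 6 and 1 to 6) were too low to be tested. *Cyp2b19* and *Cyp2b23* were not analysed here.

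**Figure D5:**
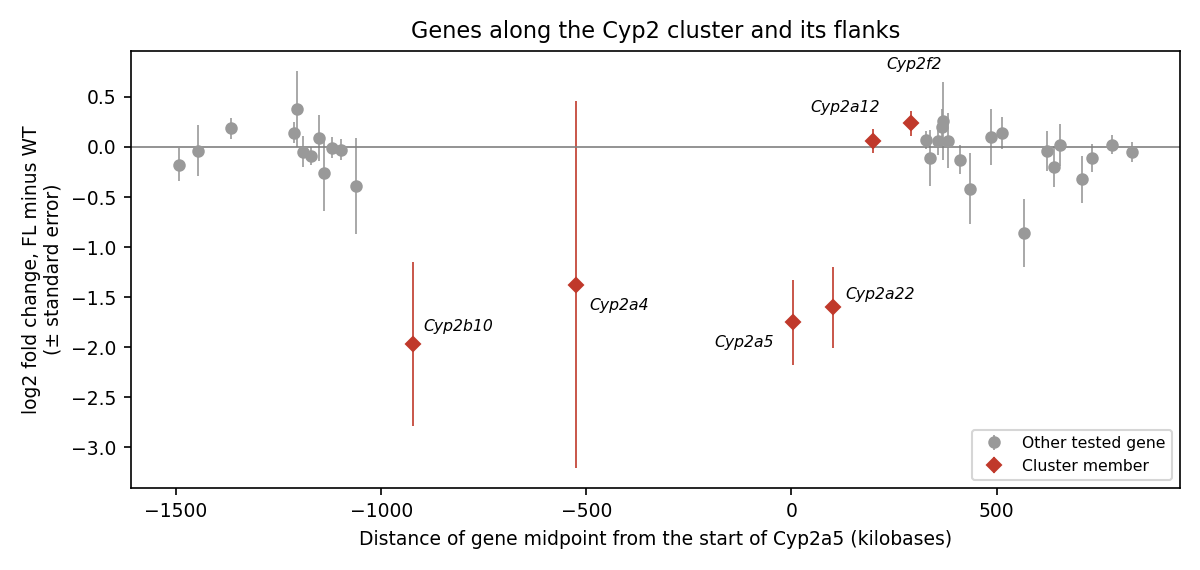
Log2 fold change (FL minus WT, limma, ± standard error) of 6 members (red, without *Cyp2b9*) and of 30 other tested genes (grey) against the distance of the gene midpoint from the start of *Cyp2a5* in kilobases. The other genes lie between -0.86 and 0.38, as do *Cyp2a12* and *Cyp2f2*, while *Cyp2b10*, *Cyp2a5*, *Cyp2a22* and *Cyp2a4* lie between -1.96 and -1.37. Without WT replicate 2 *Cyp2a4* turns to 0.72 and *Cyp2b10* moves to -0.89, and the other genes lie between -1.03 and 0.64.

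Of 16 receptors and transcription factors known to act on Cyp2a or Cyp2b genes, 0 passed the limma threshold. *Nfe2l2*, which encodes the antioxidant factor NRF2, was at 1494, 1274, 1274 and 1197 normalised counts in FL and 1617, 1713 and 1583 in WT livers. The groups did not overlap, and the log2 fold change was -0.33 (standard error 0.11, unadjusted p = 0.0162 from limma). *Cebpa*, a factor of differentiated hepatocytes, was at 7169, 7099, 6823 and 6160 in FL and 5954, 4668 and 5898 in WT livers, again without overlap (log2 fold change 0.31, standard error 0.13, unadjusted p = 0.0376 from limma). It was 0.20 without WT replicate 2 (unadjusted p = 0.101 from limma). The receptor genes *Nr1i3* (CAR) and *Nr1i2* (PXR) had log2 fold changes of 0.022 and 0.11, with standard errors of 0.24 and 0.18, and of -0.21 and 0.24 without WT replicate 2. *Hnf4a*, a general hepatocyte factor, had one of 0.31 (standard error 0.15). The median of the 16 was 0.0035, and 8 lay below 0 and 8 above, while without WT replicate 2 it was -0.028 with 10 below.

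Of 13 genes outside the cluster known to be induced through CAR or PXR, 0 passed the limma threshold, 10 had a log2 fold change below 0, and the median was -0.33 (-0.34 without WT replicate 2, with 11 below 0). *Abcc2*, an export pump for conjugates, was at 3715 to 4484 normalised counts in FL and 4945 to 6020 in WT livers (log2 fold change -0.39, standard error 0.12, unadjusted p = 0.0108 from limma). *Cyp3a11*, the main drug-oxidising enzyme of the Cyp3a family, was at 15797 to 25024 in FL and 27678 to 57805 in WT livers (log2 fold change -0.83, standard error 0.29, unadjusted p = 0.0225 from limma). The highest *Cyp3a11* value was in WT replicate 2, as for *Cyp2b10*, and without that liver the log2 fold change was -0.49. In 3 of the 13 the FL livers lay below the WT range (*Abcc2*, *Cyp3a11* and *Aldh1a7*, the last at 1757 to 1842 and 1954 to 3013), against 1.98% of all tested genes. In 1, *Cyp3a13*, they lay above it (3746 to 4524 and 3167 to 3439), against 2.77% of all.

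Of 10 antioxidant genes known to be induced through NRF2, 0 passed the limma threshold and the median log2 fold change was 0.053. It was -0.33 without WT replicate 2, with 8 of 10 below 0. *Nqo1*, a quinone reductase, was at 102, 107, 139 and 84 normalised counts in FL and 168, 267 and 177 in WT livers. Again the groups did not overlap, and the log2 fold change was -0.90 (standard error 0.23, unadjusted p = 0.00421 from limma). For *Slc7a11*, the cystine importer, the log2 fold change was -1.05 (standard error 0.36, unadjusted p = 0.0187 from limma), with overlapping groups (209 to 488 and 483 to 851). *Gclc*, *Txnrd1* and *Srxn1*, further genes of this list, were lowest in WT replicate 2, unlike *Nqo1*. Of 8 genes for the electron donors and the haem supply of P450 enzymes, 0 passed, and *Por* had a log2 fold change of 0.20 (standard error 0.22), which was -0.0044 without WT replicate 2.

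WT replicate 2, in which 4 of the 7 members were highest (*Cyp2a4*, *Cyp2a22*, *Cyp2b9* and *Cyp2b10*) and *Cyp2f2* was lowest, also stood apart in other lists. Across all tested genes 31.58% were highest in this liver. Among 12 male-biased liver genes, 11 were lowest there, with summed levels of 13285 in that liver, 37704 and 41139 in the other WT livers and 28217 to 49493 in FL livers. Of 10 genes of cycling cells, 8 were highest there, and *Mki67* stood at 26, 17, 75 and 18 normalised counts in FL and 26, 380 and 38 in WT livers. Of 11 genes of hepatocytes around the central vein with a row, 5 were lowest there, *Cyp2e1* at 8415 against 51359 and 56150 in the other WT livers and *Glul* at 1048 against 3838 and 4538. Of 11 genes of hepatocytes around the portal vein, 7 were highest there. Of the genes biased to female liver outside the cluster, 2 of 8 with a row were highest there. *Cux2*, a factor of female liver, was highest in FL replicate 3 (668) and next highest in WT replicate 2 (448), the same 2 livers in which *Cyp2a4* was high. Their median log2 fold changes between the genotypes were 0.42 for the male-biased and -0.31 for the female-biased genes, -0.81 for the genes of cycling cells, and -0.10 and -0.11 for the genes around the central and the portal vein. With WT replicate 2 left out, these were -0.16, 0.28 and 0.066 for the first 3 lists and -0.53 and 0.33 for the last 2. Only the central vein median kept its direction. Without FL replicate 3 as well, they were -0.099, 0.13, -0.18, -0.31 and -0.022 in the same order. The medians of the cycling cell and portal vein genes were then below 0 again. Among FL livers, FL replicate 3 was lowest in 10 of 11 central vein genes and highest in 11 of 11 portal vein genes. None of these lists had a gene past the limma threshold, and their part in the levels of the members was not tested.

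Markers of other liver cells moved with the same liver. The summed level of 8 macrophage markers was 12545 in WT replicate 2, 4864 and 5513 in the other WT livers and 4872 to 7806 in FL livers, and 7 of the 8 were highest there. The sum of 6 stellate cell and fibroblast markers was 6978 against 2425 and 2736 in WT and 2590 to 3219 in FL livers, with 6 of 6 highest there. The 4 genes of the lymphocyte list summed to 442 against 81 and 118 in WT and 70 to 239 in FL livers. Most of this sum is *Ptprc*, which is not specific to lymphocytes (339 in WT replicate 2, 65 and 88 in the other WT livers). The sums of 6 endothelial markers (2383 to 3334 in WT, 2608 to 3035 in FL) and of the 5 neutrophil markers with a row (66 to 180 and 44 to 122) overlapped between genotypes. The 5 bile duct markers summed to 879 to 1204 in WT and 603 to 1482 in FL livers, and within them *Krt19* was at 6 to 21 in FL and 26 to 128 in WT livers while *Sox9* was at 297 to 763 in FL and 204 to 261 in WT livers. Median log2 fold changes were -0.24 for the macrophage, -0.34 for the stellate cell, -0.48 for the lymphocyte, -0.020 for the endothelial, -0.42 for the neutrophil, -0.70 for the bile duct and 0.27 for the hepatocyte markers. Without WT replicate 2 the macrophage median turned to 0.19 (8 of 8 above 0), the stellate cell median to 0.063 (5 of 6) and the endothelial median to 0.18 (5 of 6). The neutrophil median was then -0.013, the bile duct median -0.86 and the hepatocyte median 0.22, and of the lymphocyte list only *Ptprc* could still be tested (0.26). Without FL replicate 3 as well, the macrophage median was 0.0145 (6 of 8 above 0) and the stellate cell median 0.0142 (3 of 6). The endothelial median was then 0.14 (4 of 6), the neutrophil median -0.21, the bile duct median -0.45 and the hepatocyte median 0.16, and *Ptprc* was at -0.059. No marker was at 0 in all livers, and none passed the limma threshold. The part of these cells in the levels of the members was not tested. With WT replicate 2 and FL replicate 3 left out, the means in FL and WT livers were 1652 and 7247 for *Cyp2a5*, 23.3 and 52.0 for *Cyp2a22* and 174 and 325 for *Cyp2b10*.

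For each member, the genes with the most similar profile of log2(normalised count + 1) over the 7 livers were listed by Pearson's r, as a description over 7 points that share the genotype and the livers that stand apart. *Cyp2a5* was most like *Zc3h7b* (r = 0.982, Spearman's rho = 1.0), *Ampd3* (0.982, 0.964) and *Uprt* (0.957, 0.937), and without the 2 livers farthest from its median r was 0.942, 0.939 and 0.962. *Cyp2a4* was most like *Cytip* (r = 0.999, rho = 0.991), *Pgpep1* (0.996, 0.893) and *Dixdc1* (0.995, 0.857). *Cyp2b10* was most like *Ccnd1* (r = 0.990, rho = 0.821), *Egr2* (0.989, 0.937) and *Ptafr* (0.984, 0.793), with r of 0.812, 0.981 and 0.882 without its 2 farthest livers. *Cyp2a22* was most like *Cenpm* (0.980), *Grb10* (0.975) and *Map3k20* (0.974), and *Cyp2b9*, which rests on a single liver, was most like *Them6* (0.985), *Atpif1* (0.984) and *Tgfb3* (0.983). *Cyp2a12* was most like *Rps29* (r = 0.988, rho = 0.991), *Acadl* (0.958, 0.964) and *Adam33* (0.955, 0.991). *Cyp2f2* was most like *Stat3* (r = 0.976, rho = 0.964), *Adar* (0.975, 0.786) and *Fnbp4* (0.969, 0.821), with r of 0.829, 0.617 and 0.487 without its 2 farthest livers. No member appeared among the 3 most similar genes of another member.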

How the data were processed

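RNA-seq of liver 8 h after CCl4 treatment was analysed from 4 FL and 3 WT mice, grouped by their labels. The authors read stranded mRNA libraries as pairs of 36 bases, aligned them with TopHat2 2.0.13 and Bowtie2 2.2.6.0 to the mouse genome of Ensembl release 75, and normalised counts per gene with DESeq2. The methods name HTSeq as the counter and the submitters' processing notes also name featureCounts, so how reads shared by paralogs were treated is not given in the sources used here. The authors rounded these normalised counts to whole numbers before they were deposited, and the values were handled here as a score and not as counts: in 4 libraries 1 read is worth less than 1, so rounding hides the reads and no count test was run. The submitters' table held 14988 rows for 14851 identifiers, and 120 identifiers with repeated identical rows were kept once. All columns of livers were used.

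Genotypes were compared with limma 3.58.1 in R 4.3.3 (eBayes with a trend) on log2(value + 1) over the 12545 genes averaging 10 or more, and single values by exact permutation over 35 splits. For a test, data were simulated with the spread between livers of one genotype, leaving out WT replicate 2 and FL replicate 3. On these the fit called 84.0% of 100 genes changed by 1 on the log2 scale and 98.0% of 98 changed by 2. With all 7 livers the spread is wider, so these shares do not apply to the fit reported here. P-values set the difference between genotypes against the variation between single mice, which limma moderates over all tested genes. Gene positions came from GENCODE vM21 (GRCm38), sharing was counted in its transcripts, and promoters came from RefSeq (all 8 members matched). Figures were made with Matplotlib 3.10.9.

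The members, the 17 other gene lists and the tests were chosen with earlier results of these data known. Named genes are the members, *Trp53*, those of a list with the smallest p-values, a set of regulators and markers, other Cyp2 genes of the cluster and the 3 genes most alike to each member. Others were named after their values were seen (*Sptbn4*, *B3gnt8*, *Egln2*, *Cux2*, *Cyp3a13*, *Aldh1a7*, *Gclc*, *Txnrd1* and *Srxn1*). Alternatives were pseudocounts of 0.5 and 5, no filter or a mean of at least 50, quantile and upper quartile scaling, no trend, robust hyperparameters, a replicate block, and livers left out.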

Additional observations from a re-analysis of the deposited data

Results flagged for a closer look

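Among the 4 FL livers, 47 values (members, *Trp53*, *Cyp2a5* relative to its neighbours and the named genes of the lists) were searched for one liver standing away from the rest, by a gap above 0.829 of the range. Chance marks about 1 in 20 such groups, and 3 were marked, all in FL replicate 3. *Cyp2a4* was at 337 normalised counts there, the remaining FL livers at 8 to 24. *Mki67*, a gene of cycling cells, was at 75 against 17 to 26. *Cd3e*, a T cell marker, was at 19 against 3 in each of the other FL livers. The same genes were highest among the WT livers in WT replicate 2 (1468, 380 and 24), a group too small for this rule.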

How the results depend on the processing

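None of the 7 members passed the limma threshold under any of the 17 alternatives. The filters, no trend and robust hyperparameters cannot change the log2 fold change of a tested gene, only its p-value. The replicate block gives the same log2 fold changes as leaving out FL replicate 4. The counts of alternatives that follow therefore include repeats of one value. *Cyp2a5* kept its direction in all 17 (log2 fold change from -2.13 to -1.29, adjusted p from 0.143 to 1.0), *Cyp2a22* in the 16 that tested it (-1.86 to -1.17), *Cyp2b10* in 17 (-2.55 to -0.89), *Cyp2f2* in 17 (0.12 to 0.32) and *Cyp2a12* in 17 (0.003 to 0.19). *Cyp2a4* lay between -2.88 and 0.72 across livers left out, and turned to 0.72 without WT replicate 2. A mean of at least 50 dropped *Cyp2a22* and *Cyp2b9*, and *Cyp2b9* also had no value without WT replicate 2. Summing the near copies, an alternative added after the data had been seen, gave -1.85 for *Cyp2a5* with *Cyp2a4* and 0.043 for *Cyp2a12* with *Cyp2a22*.

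Over all tested genes 2 passed (*Trp53* and *Eda2r*). A mean of at least 50, no trend, a pseudocount of 5 and the replicate block gave 0, with 316, 465, 404 and 110 genes at an unadjusted limma p under 0.05. Quantile normalisation gave 1 gene and leaving out 1 liver gave 0 to 5, with 248 to 739 at an unadjusted p under 0.05 (5 without WT replicate 3). Without WT replicate 2 and FL replicate 3, 6 genes passed (*Trp53* at -2.78), 1 of them (*Sox9*) from the lists, where 0 passed with all livers. *Trp53* kept its direction but missed the threshold with a mean of at least 50 (log2 fold change -2.47, adjusted p = 0.0666), no trend (-2.47), a pseudocount of 5 (-2.44) and the replicate block (-2.35), and in 6 of the 7 fits that left out 1 liver (-2.68 to -2.35 over all 7). The cause was not tested.

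*Cyp2a5* relative to its neighbours (-1.31, exact p = 0.0571) passed against *Cyp2a12* alone (-1.81) and *Cyp2f2* alone (-1.98), and ran from -1.82 to -0.78 with 1 liver left out, where no exact p can fall below the threshold. Shared stretches of 25 and 50 bases in place of 36 gave 65.6% and 38.0% for *Cyp2a4*, and 0 for *Cyp2f2* at both. Replicate numbers 1 to 3 occur in both genotypes but mark different mice. Across genes, the deviations of same-numbered livers correlated at 0.44, -0.48 and -0.66. WT replicate 2 and FL replicate 3, which stand apart and bear different numbers, weigh heavily on these values. They cannot show whether the numbers mark pairs, and the numbers were not taken as pairs. With the replicate block the log2 fold changes were -1.48 for *Cyp2a5*, -1.57 for *Cyp2a22* and -1.89 for *Cyp2b10*. For *Cyp2a4*, *Cyp2f2* and *Cyp2a12* they were -1.27, 0.26 and 0.003. FL replicate 4 has no WT liver of its number, so the block removes it from the comparison. These values are therefore the same as those without FL replicate 4. The groups of 4 and 3 livers limit the precision, and for genes at low counts the depth does so as well. These are *Cyp2b9*, the other Cyp2 genes at a few counts, *Cyp2a22* (15 to 34 normalised counts in FL livers) and *Cyp2a4* in most livers. The share of the depth in the spread of single members was not tested.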
